A study of Bos indicus x Bos taurus with 11 samples.

Results

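The unfolded protein response and the amino acid response were described through 36 genes, all found by name among the 27398 genes and assembled loci of the deposited expression table. They are 22 genes of the endoplasmic reticulum (ER), namely 14 chaperones and folding enzymes, 4 genes of ER-associated degradation, and 4 genes of the stress sensors and their transcription factors. The other 14 are 5 transcription factors and effectors around ATF4, 4 genes of amino acid supply, and 5 genes of serine synthesis and one-carbon metabolism. All 36 passed the filter on low counts that left 16946 genes for testing, and 24 also had reads assigned to a parental allele.

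Total RNA had been sequenced from primary skin fibroblast cultures, 1 library per fetus, of Brahman (Bos taurus indicus) by Angus (Bos taurus taurus) F1 hybrid fetuses at day 105 of gestation. The 6 fetuses with large offspring syndrome (LOS; 3 females and 3 males), an overgrowth condition, were conceived by assisted reproduction and were heavier than the 97th centile of control weights. The 5 control fetuses (2 females and 3 males) were conceived by artificial insemination and are labelled healthy. All cultures were grown in the same serum medium, and conception method and overgrowth cannot be told apart between the groups. Libraries are called by the group and replicate number in the labels. LOS 1 to 3 and control 1 and 2 are female, and the others are male.

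When unfolded proteins build up in the ER, the sensors IRE1 (gene ERN1), PERK (EIF2AK3) and ATF6 raise the transcription of ER chaperones and degradation factors, in part through the transcription factor XBP1. PERK also acts on translation so that the transcription factor ATF4 accumulates, and the kinase GCN2 does the same when amino acids run short. ATF4 drives genes of amino acid import, asparagine and serine synthesis, and tRNA charging. Fibroblasts secrete much collagen and so depend on this folding machinery. Gene roles given here are known from mammalian cells, mostly human and mouse.

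The libraries held 12084822 to 19297167 counts, and LOS 6, control 2 and control 4 were the deepest. Per library, the summed level of 10 fibroblast markers was 53029 to 67339 CPM (counts scaled to a common library size) in LOS and 55635 to 64738 CPM in controls. Leukocyte markers summed to at most 0.821 CPM in LOS and 1.13 CPM in controls. The 5 keratinocyte markers in the table summed to 2.38 to 24.3 CPM in LOS and 3.56 to 10.7 CPM in controls. Of these, CDH1 ran from 0.0529 to 21.2 CPM in LOS, highest in LOS 1, and from 1.78 to 9.10 CPM in controls, and KRT10 was 1.63 to 3.24 CPM over all libraries. The basal keratins KRT5 and KRT14 had a median of 0 CPM in both groups. The melanocyte gene PMEL ran from 7.77 to 45.3 CPM in LOS and from 3.95 to 166 CPM in controls. All 12 proliferation markers had a negative log2 fold change in LOS (median -0.41), but 0 of them had an unadjusted p under 0.05 by edgeR. Their sum was 144 to 501 CPM in LOS, highest in LOS 1, against 203 to 382 CPM in controls. That sum was not called different (exact permutation p = 0.314, two-sided, adjusted p = 0.418 over 4 library measures). Mitochondrial genes took 2.44% ± 0.225 of counts in LOS and 2.76% ± 0.300 in controls (SD; exact permutation p = 0.0628, two-sided, adjusted p = 0.251 over 4 library measures). The part of proliferation, PMEL, CDH1 and depth in the results below was not tested. Fewer cells of a type and less RNA per cell cannot be told apart in such cultures.

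No gene of the set passed the test of LOS against control fibroblasts, while most lay slightly higher in LOS. In edgeR's quasi-likelihood fit, with p adjusted by Benjamini and Hochberg's method over 16946 genes, 0 of the 36 genes were called, against a background of 0% of all genes, and the smallest adjusted p of the set was 0.932. DESeq2 called 4 genes in the whole table and 0 of the 36, with a smallest adjusted p of 0.892 at SLC3A2, and limma voom called 0. At an unadjusted p under 0.05 there were 4 of the 36 genes, against 4.44% of all genes. All 4 were higher in LOS, against 2.48% of all genes. By edgeR these unadjusted p were 0.00833 for SLC3A2, 0.0275 for SEL1L, 0.0299 for PSPH and 0.0479 for PHGDH. In 0 of the 36 genes were the LOS and control libraries fully apart, against 0.230% of all genes.

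The direction was uneven but rested on few libraries. In LOS, 31 of the 36 genes had a positive log2 fold change (86.1%, against 49.8% of all genes), with a median of 0.12 against 0.00. The ER genes were higher in 20 of 22, with a median of 0.12, and the ATF4 and amino acid genes in 11 of 14, with a median of 0.10. Without control 2, the count of positive genes was 20 of 36 (14 ER genes and 6 ATF4 and amino acid genes). Without LOS 6 it was 21 of 36 (12 and 9), and without both it was 10 of 36 (4 and 6), with a median of -0.10. The fit without both libraries was added after the data were seen. LOS 6 was the highest library in 22 of the 36 genes, and control 2 the lowest in 23. Leaving out both therefore lowers the LOS difference in such genes by construction, here and below, and is not an independent check.

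**Figure D1:**
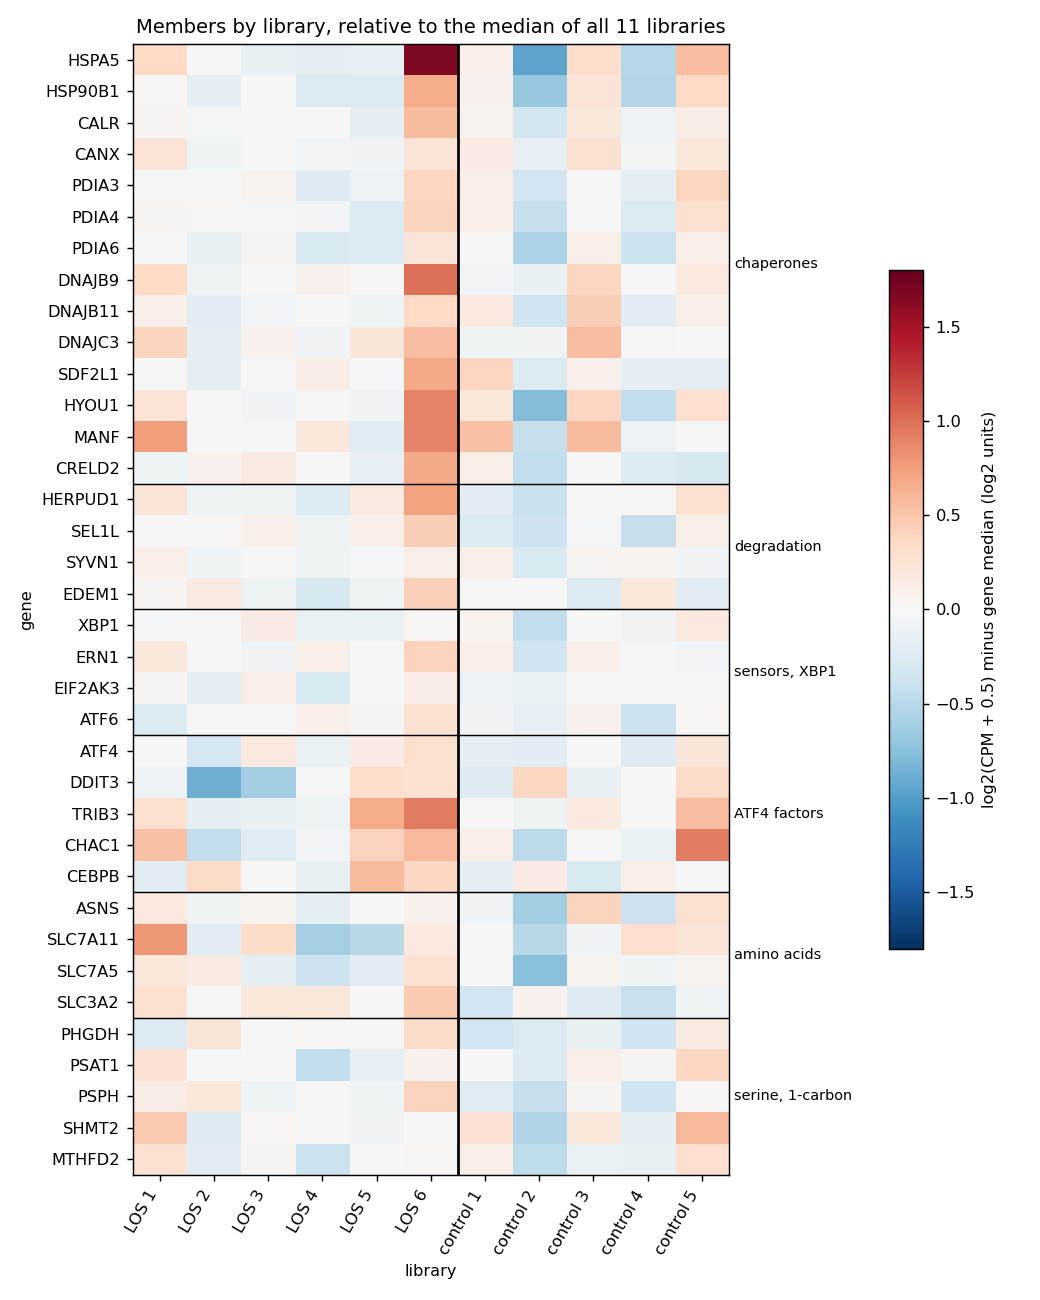
Expression of the 36 genes in 11 libraries, LOS on the left and control on the right of the black line. Colour gives log2(CPM + 0.5) minus the gene's median over all libraries, in log2 units, with red above and blue below the median. The LOS 6 column is the reddest over the chaperones, where HSPA5 lies 1.75 above the median of the other libraries, and control 2, the bluest column there, is lowest in 13 of the 14.

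Among the chaperones, LOS 6 and control 2 marked the ends of the range. HSPA5 (BiP, the Hsp70 chaperone that binds unfolded proteins and holds the sensors inactive; chr11:96115158-96119474, minus strand, build ARS-UCD1.2) had 319, 343 and 1150 CPM as the lowest, median and highest of LOS. Its control libraries 1 to 5 had 382, 185, 449, 251 and 529 CPM. The groups overlapped, with 5 LOS libraries between 319 and 461 CPM inside the control range and LOS 6 above every other library. HSPA5 averaged 490 ± 328 CPM in LOS libraries and 359 ± 141 CPM in control libraries (SD, n = 6 and 5). Its log2 fold change was 0.50 ± 0.36 (SE), the largest of the set, 0.04 without LOS 6, and -0.22 without LOS 6 and control 2. From lowest to highest library it spanned 6.23-fold. Of 1706 genes with a mean of at least 100 CPM, 2.23% had a span that wide or wider, and the median span was 1.56-fold.

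CRELD2, a disulfide isomerase-like protein of the ER (chr5:119312478-119319448, plus strand), had the smallest p of the chaperones (0.0843). Its lowest, median and highest LOS values were 22.5, 25.6 and 40.3 CPM, against 27.2, 18.1, 24.9, 21.0 and 20.3 CPM in controls 1 to 5. All 6 LOS libraries were above the control median, and 2 were above every control. The log2 fold change of 0.32 ± 0.17 (SE) became 0.15 without LOS 6 and 0.04 without LOS 6 and control 2.

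The same libraries marked the ends of the range in most other chaperones. LOS 6 held the highest value of 10 of the 14 chaperones, and control 2 the lowest of 13 of 14. Over all genes tested, LOS 6 was highest in 12.2% and control 2 lowest in 10.5%. In LOS 6, DNAJB9 (ERdj4, a co-chaperone of BiP) stood 2.05-fold above the median of the other libraries. The secreted folding factor MANF stood 1.92-fold above that median, and HYOU1 (GRP170, which recharges BiP with ATP) 1.87-fold. The figure was 1.69-fold for HSP90B1 (GRP94, the Hsp90 of the ER) and 1.72-fold for SDF2L1, a partner of ERdj3. The calcium-binding lectin chaperone CALR was 1.48-fold above, and its membrane-bound relative CANX 1.19-fold. The disulfide isomerases PDIA3, PDIA4 and PDIA6 were 1.31-fold, 1.34-fold and 1.23-fold above, and the co-chaperones DNAJB11 (ERdj3) and DNAJC3 (p58IPK) 1.31-fold and 1.48-fold. In LOS 6 the proliferation marker sum was 163 CPM, against a LOS median of 197 CPM.

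HSP90B1 had 405, 457 and 770 CPM as the lowest, median and highest of LOS, against 514, 303, 568, 335 and 622 CPM in controls 1 to 5. Apart from LOS 6, every LOS library lay below the control median, and the groups overlapped. Log2 fold changes of the chaperones other than HSPA5 and CRELD2 ran from -0.03 for CANX to 0.25 for HYOU1. CANX (-0.03 ± 0.11 SE) and DNAJB11 (-0.01 ± 0.14 SE) were the 2 chaperones on the negative side. DNAJB11 overlaps TBCCD1 on the opposite strand by 3433 bases, so its counts are uncertain where strand was not used. Without LOS 6 and control 2, log2 fold changes were -0.25 for HSP90B1, -0.20 for MANF and -0.19 for PDIA3. Without LOS 6 alone, that of HYOU1 was 0.06, that of DNAJB9 0.02 against 0.23 with all libraries, and that of DNAJC3 0.03 against 0.11.

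Summed over the 14 chaperones, LOS libraries held 2997, 3237 and 5321 CPM as lowest, median and highest, against 3528, 2436, 3840, 2787 and 3988 CPM in controls 1 to 5. The LOS median was below the control median of 3528 CPM. Control 2 and control 4, low in the sum, and LOS 6, high in it, were the 3 deepest libraries. The levels moved together across libraries: HSPA5 and HSP90B1 correlated over the 11 libraries at Pearson r = 0.94 (permutation p = 1e-05, the smallest that 100000 resamples give, adjusted p = 5e-05 over 5 pairs). Spearman's rho was 0.95 (permutation p = 4e-05, adjusted p = 0.0002), and r was 0.92 without LOS 6 and control 2. Over all 91 pairs of chaperones the median rho was 0.72, with 91 pairs positive, and 0.65 without LOS 6, with 89 positive. These pairs share libraries and depth and are given as a description. The same median over pairs drawn from all genes was not computed.

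**Figure D2:**
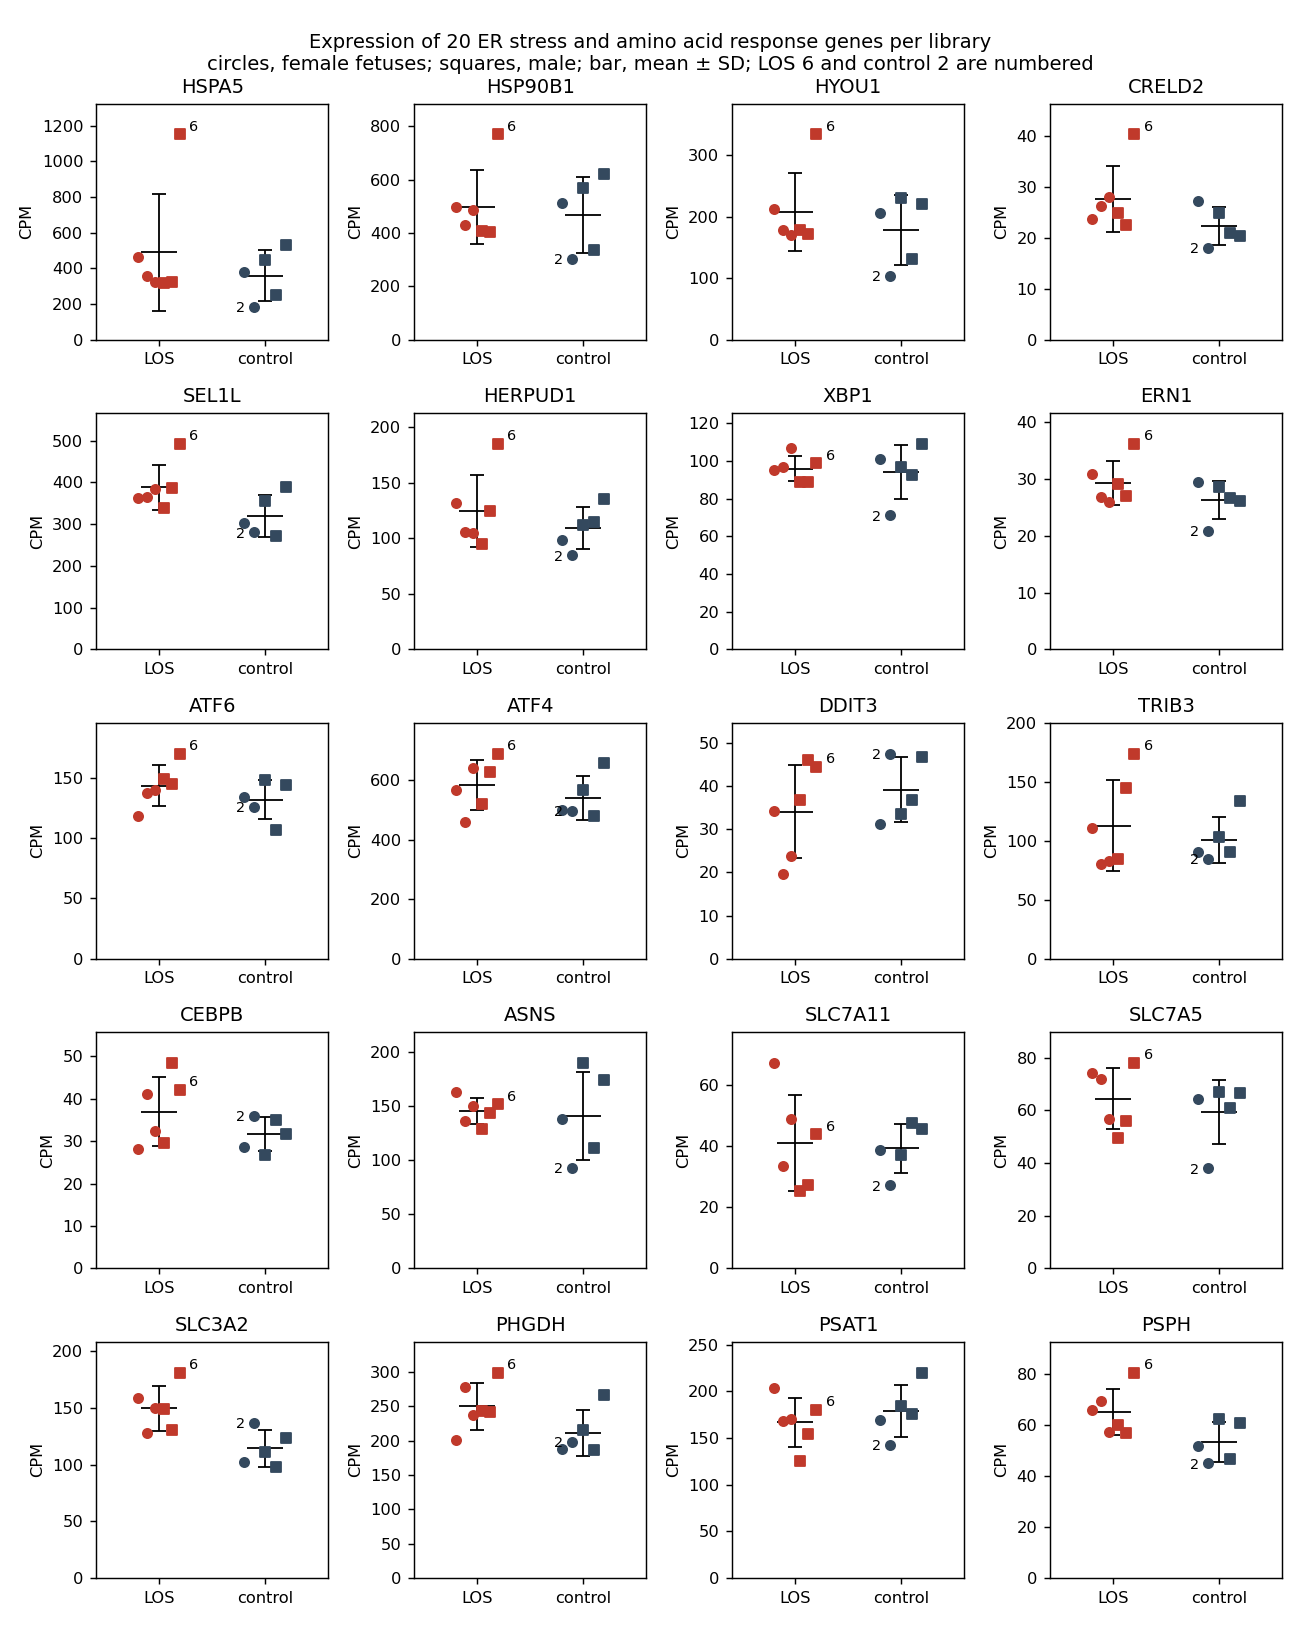
Levels of 20 genes in CPM per library, LOS left of control in every panel, with circles for females, squares for males and bars for the mean ± SD. LOS 6 and control 2 are numbered. In HSPA5, LOS 6 lies at 1150 CPM above every other library, while in SLC3A2 all 6 LOS libraries lie above the control median of 111 CPM.

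The degradation genes held 1 of the genes with a small unadjusted p. SEL1L, the adaptor of the HRD1 ubiquitin ligase complex (chr10:92758415-92823117, minus strand), had 339, 376 and 492 CPM as the lowest, median and highest of LOS. Controls 1 to 5 had 302, 280, 355, 272 and 388 CPM. All 6 LOS libraries were above the control median, only LOS 6 was above every control, and the groups overlapped. The log2 fold change was 0.30 ± 0.12 (SE), and 0.18 ± 0.13 without LOS 6 and control 2.

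HERPUD1, an ER membrane partner of the ligase, had 94.5, 115 and 185 CPM in LOS, against 98.2, 84.6, 112, 115 and 135 CPM in controls 1 to 5. With 3 LOS libraries above and 3 below the control median, the log2 fold change was 0.23 ± 0.16 (SE), 0.09 without LOS 6, and 0.00 without LOS 6 and control 2. SYVN1, the HRD1 ligase itself, and EDEM1, which marks misfolded glycoproteins, differed by 0.03 ± 0.09 and 0.09 ± 0.14 on the log2 scale.

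The 4 genes of the stress sensors and XBP1 had small positive log2 fold changes, with XBP1 and EIF2AK3 close to even. ERN1, which splices XBP1 mRNA when active, had 25.9, 28.1 and 36.2 CPM as the lowest, median and highest of LOS, against 29.5, 20.9, 28.7, 26.7 and 26.1 CPM in controls 1 to 5 (log2 fold change 0.17 ± 0.11 SE, 0.09 without control 2, and 0.00 without LOS 6 and control 2). ATF6, a membrane-held transcription factor freed by cleavage, had 118, 143 and 170 CPM in LOS, against 134, 126, 148, 107 and 144 CPM in controls (0.13 ± 0.10 SE, and 0.05 without control 4). In both genes 5 of 6 LOS libraries were above the control median, and 2 above every control. XBP1 (chr17:68052009-68057008, minus strand) had 88.6, 96.2 and 107 CPM in LOS, against 101, 71.1, 96.6, 92.7 and 109 CPM in controls. Its LOS libraries were split 3 and 3 around the control median, and LOS 6, at 98.8 CPM, was not apart (1.03-fold over the median of the others). The log2 fold change of XBP1 was 0.03 ± 0.11 (SE) and that of EIF2AK3, which encodes PERK, 0.02 ± 0.09. The counts do not separate spliced from unspliced XBP1 mRNA.

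Among the genes around ATF4, differences were small and went both ways. ATF4 itself (chr5:110946624-110948721, plus strand) had 461, 597 and 690 CPM as the lowest, median and highest of LOS, against 501, 497, 566, 480 and 658 CPM in controls 1 to 5. With 5 of 6 LOS libraries above the control median and the groups overlapping, the log2 fold change was 0.13 ± 0.12 (SE), and 0.08 without control 4. CEBPB, a bZIP factor that pairs with ATF4, had 28.1, 36.7 and 48.4 CPM in LOS, against 28.6, 36.0, 26.7, 35.0 and 31.6 CPM in controls (0.23 ± 0.15 SE). There 3 LOS libraries were above every control, and the value was 0.14 without LOS 5 and 0.29 without LOS 6 and control 2.

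DDIT3 (CHOP, a pro-apoptotic factor induced by ATF4; chr5:55956303-55960513, plus strand) was the gene furthest to the negative side. LOS had 19.7, 35.4 and 45.9 CPM as lowest, median and highest, against 31.3, 47.5, 33.4, 36.7 and 46.8 CPM in controls 1 to 5. The females LOS 2 and LOS 3 were below every control, and the groups overlapped. The log2 fold change was -0.21 ± 0.20 (SE), -0.01 without control 2, and -0.06 without LOS 6 and control 2. DDIT3 overlaps MARS on the opposite strand by 63 bases, and the sources used here do not say whether counting used strand. TRIB3, a pseudokinase that restrains ATF4, differed by 0.19 ± 0.18 and CHAC1, which breaks down glutathione, by 0.07 ± 0.25 (log2, SE). In LOS 6, TRIB3 stood 1.92-fold above the median of the other libraries, and without it the log2 fold change of TRIB3 was 0.06. DDIT3 and TRIB3 correlated across the 11 libraries at r = 0.62 (permutation p = 0.0406, adjusted p = 0.0508) and rho = 0.58 (permutation p = 0.0652, adjusted p = 0.0815), and r was 0.50 without LOS 2 and LOS 3.

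Amino acid supply held the smallest p of the set. SLC3A2 (CD98 heavy chain, which carries the light chains SLC7A5 and SLC7A11 to the cell surface; chr29:41158503-41199498, plus strand) had 128, 150 and 181 CPM as the lowest, median and highest of LOS. Controls 1 to 5 had 102, 137, 111, 97.9 and 123 CPM. All 6 LOS libraries were above the control median and 4 above every control, and control 2 was the highest control here. SLC3A2 averaged 150 ± 19.8 CPM in LOS libraries and 114 ± 16.1 CPM in control libraries (SD, n = 6 and 5), a log2 fold change of 0.39 ± 0.12 (SE) with an edgeR adjusted p of 0.932. Leaving out single libraries gave 0.31 (without LOS 6) to 0.49 (without control 2), and leaving out both gave 0.40. As each was the highest library of its group, the 2 shifts offset each other by construction. An assembled locus on the same strand overlaps SLC3A2 over 8768 bases, and how reads were divided between them is not stated.

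The genes of its light chains were nearer to even. SLC7A5 (LAT1, an importer of large neutral amino acids) had 49.5, 64.4 and 77.9 CPM in LOS, against 64.1, 38.0, 66.9, 60.7 and 66.7 CPM in controls 1 to 5. Control 2 was far below the rest, and the log2 fold change was 0.13 ± 0.17 (SE) with all libraries and -0.15 without LOS 6 and control 2. SLC7A11, the cystine importer xCT, differed by 0.02 ± 0.26, with LOS libraries from 25.5 to 67.3 CPM on both sides of the control range of 27.3 to 47.8 CPM. ASNS, asparagine synthetase, averaged 146 ± 12.2 CPM in LOS libraries and 141 ± 41.0 CPM in control libraries (SD, n = 6 and 5; log2 fold change 0.07 ± 0.17 SE). Its LOS libraries, at 129 to 163 CPM, all lay inside the control range of 93.3 to 190 CPM.

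The serine synthesis genes did not all lie on the same side, but whether they differed from each other was not tested. PHGDH, which commits a glycolytic intermediate to serine (chr3:23565152-23596343, minus strand), had 201, 242 and 299 CPM as the lowest, median and highest of LOS, against 188, 198, 216, 186 and 267 CPM in controls 1 to 5. PSPH, the phosphatase of the last step (chr25:27697176-27727763, minus strand), had 57.0, 63.2 and 80.7 CPM in LOS, against 51.7, 45.1, 62.4, 46.9 and 61.1 CPM in controls. In both genes all 6 LOS libraries were above the control median, with 2 above every control in PHGDH and 3 in PSPH. Log2 fold changes were 0.27 ± 0.12 (SE) for PHGDH and 0.30 ± 0.12 for PSPH, and 0.21 ± 0.15 and 0.15 ± 0.13 without LOS 6 and control 2.

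PSAT1, the aminotransferase between those steps, lay on the negative side. It averaged 167 ± 26.5 CPM in LOS libraries and 178 ± 27.8 CPM in control libraries (SD, n = 6 and 5; log2 fold change -0.09 ± 0.14 SE), with 4 of 6 LOS libraries below the control median. The mitochondrial one-carbon enzymes SHMT2 (-0.05 ± 0.19 SE) and MTHFD2 (0.01 ± 0.15 SE) were close to even. PHGDH and PSAT1 correlated across the 11 libraries at r = 0.08 (permutation p = 0.82, adjusted p = 0.82) and rho = 0.04 (permutation p = 0.925, adjusted p = 0.925), and r was 0.14 without control 1 and control 4. Within the groups r was -0.17 in LOS and 0.77 in controls, as a description over 6 and 5 libraries. ASNS and PSAT1 had r = 0.63 (permutation p = 0.0386, adjusted p = 0.0508) and rho = 0.79 (permutation p = 0.00589, adjusted p = 0.00982), and r was 0.59 without control 2 and control 3.

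**Figure D3:**
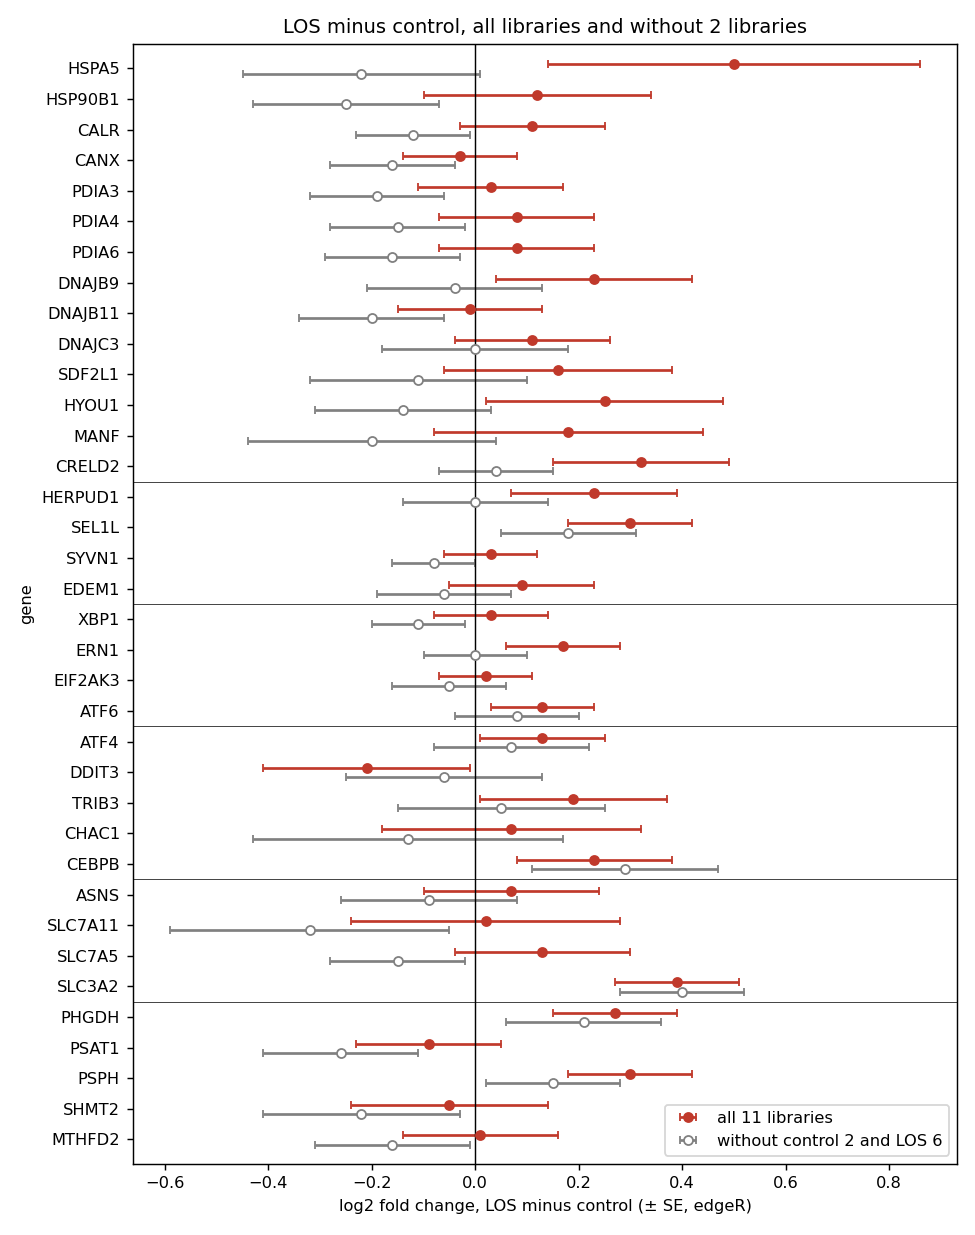
Log2 fold change, LOS minus control, with its standard error from edgeR, for the 36 genes by role. Filled red points use all 11 libraries and open grey points leave out control 2 and LOS 6. Those libraries were picked after their values were seen, so a shift to the left is built in where LOS 6 was highest and control 2 lowest. Without those libraries the chaperones at the top, except CRELD2 at 0.04 and DNAJC3 at 0.00, lie left of 0, with HSPA5 at -0.22 in place of 0.50. SLC3A2 lies at 0.39 and 0.40, but there LOS 6 and control 2 were each the highest of their group. Leaving out both therefore shifts SLC3A2 in opposite directions (0.31 without LOS 6, 0.49 without control 2), and its steady value is no check.

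Between the ER genes and the amino acid genes, 1 pair was tested. HSPA5 and ASNS had r = 0.68 (permutation p = 0.0263, adjusted p = 0.0508) and rho = 0.85 (permutation p = 0.0017, adjusted p = 0.00425), and r was 0.87 without LOS 6 and control 2. Within the groups r was 0.44 in LOS and 0.96 in controls, with too few libraries for more than a description. The median rho was 0.35 over the 91 pairs within the ATF4 and amino acid genes and 0.44 over the 308 pairs across them and the ER genes. Of those 308 pairs 261 were positive, with the lowest rho at -0.69, and without LOS 6 the median was 0.35. Whether these medians differ from that of the chaperones was not tested, and no median over pairs of all genes was computed.

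Of the other genes of these pathways 0 were called by edgeR, DESeq2 or limma voom, and 5 of 108 tested (4.63%, against 4.44% of all genes) had an unadjusted p under 0.05 by edgeR, namely SEC61B, PPP1R15A, WFS1, GARS and AHCY. Of 22 further ER folding genes, 18 were higher in LOS and 4 lower (median log2 fold change 0.10). Within the sexes, 22 of the 22 were higher in LOS among females (median 0.25), and 7 were higher and 15 lower among males (median -0.04). This difference between the sexes was not tested over the list. Over all 17583 genes fitted within the sexes, 9089 were higher in LOS among females and 8715 among males. Control 2 was among the 2 control females, and its part in the female count was not tested. LOS 6 held the highest value in 2 of the 22 further ER folding genes (9.09%), although control 2 held the lowest in 13. Their sum was 4676 CPM in LOS 6, against a LOS median of 4608 CPM and a control median of 4484 CPM. The 2 of them with the smallest p were SERPINH1 (HSP47, the collagen chaperone; 0.17 ± 0.10 SE, 1006 ± 59.4 CPM in LOS and 896 ± 110 CPM in controls, SD; 0.09 without control 2) and KDELR1 (0.17 ± 0.10 SE), a retrieval receptor for ER proteins. Of 21 further degradation and translocon genes tested, 17 were higher and 4 lower (median 0.06), led by the translocon subunit gene SEC61B (0.23 ± 0.10 SE) and SELENOK (0.27 ± 0.13 SE).

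Among 18 genes of stress sensing, 11 were higher and 7 lower. PPP1R15A (GADD34, which reverses the PERK signal) had 143, 173 and 209 CPM as the lowest, median and highest of LOS, against a control range of 127 to 145 CPM. There, 5 of 6 LOS libraries were above every control, and the log2 fold change was 0.34 ± 0.10 (SE). The ER membrane protein gene WFS1 differed by 0.47 ± 0.20 (SE). Of 22 further ATF4 targets tested, 17 were higher and 5 lower (median 0.12), with ATF5 at 0.39 ± 0.20 and VLDLR at 0.34 ± 0.18 (SE). Of 13 cytosolic tRNA synthetase genes, 11 were higher and 2 lower (median 0.05), with GARS at 0.32 ± 0.14 and IARS at 0.23 ± 0.14 (0.10 without LOS 6). Of 12 further one-carbon genes, 5 were higher and 7 lower, with AHCY at 0.41 ± 0.19 and MTHFD1 at -0.22 ± 0.21 (-0.38 without control 2 and -0.11 without LOS 6).

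Sex was the other labelled condition. Between males and females, 0 of the 36 genes were called, against 0.0472% of all genes, and edgeR's smallest adjusted p was 0.999. DESeq2 also called 0 of the 36, and 1 of them had an unadjusted p under 0.05 by edgeR, against 3.30% of all genes. The 3 genes with the smallest p were TRIB3 (log2 male minus female 0.45 ± 0.18 SE), HERPUD1 (0.31 ± 0.16) and DDIT3 (0.38 ± 0.20). TRIB3 averaged 122 ± 34.9 CPM in males and 89.8 ± 12.3 CPM in females (SD, n = 6 and 5), and the male library LOS 6 was its highest. In all, 32 of the 36 genes were on the male side, among them all 14 chaperones, against 49.9% of all genes. LOS 6, highest in 10 of these chaperones, is male, and control 2, lowest in 13, is female. Without LOS 6 the values of TRIB3 and HERPUD1 were 0.33 and 0.17.

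The difference between LOS and control was also fitted within each sex, with 3 LOS and 2 control females and 3 LOS and 3 control males. Of the 14 ATF4 and amino acid genes, 13 were higher in LOS among females and 7 among males, and of the 22 ER genes 21 and 15. Over all 17583 genes of that fit, 9089 were higher in LOS among females and 8715 among males. Control 2, the lowest library in 6 of the 14 and in 17 of the 22 genes, was 1 of the 2 control females. Tested as a group by sex term, a difference between the sexes was called in 0 of the 36 genes, against 0% of 17583 genes, with a smallest adjusted p of 0.921. SLC7A11 and PSAT1, or 2 of the 36, had an unadjusted p under 0.05, against 4.95% of all genes. SLC7A11 had the largest interaction, -1.02 ± 0.42 (SE, males minus females). It averaged 49.9 CPM in LOS females against 33.1 CPM in control females, and 32.3 CPM in LOS males against 43.5 CPM in control males. LOS 1, 2 and 3 had 67.3, 33.6 and 48.9 CPM, against 38.8 and 27.3 CPM in controls 1 and 2. The SLC7A11 interaction ran from -1.32 without LOS 6 to -0.75 without LOS 1. For PSAT1 the interaction was -0.55 ± 0.24, with 181 CPM in LOS females against 156 CPM in control females, and 153 CPM in LOS males against 193 CPM in control males. DDIT3 had 0.73 ± 0.34, with 25.9 CPM in LOS females against 39.4 CPM in control females, and 42.3 CPM in LOS males against 39.0 CPM in control males. Its interaction was 0.40 without control 2.

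**Figure D4:**
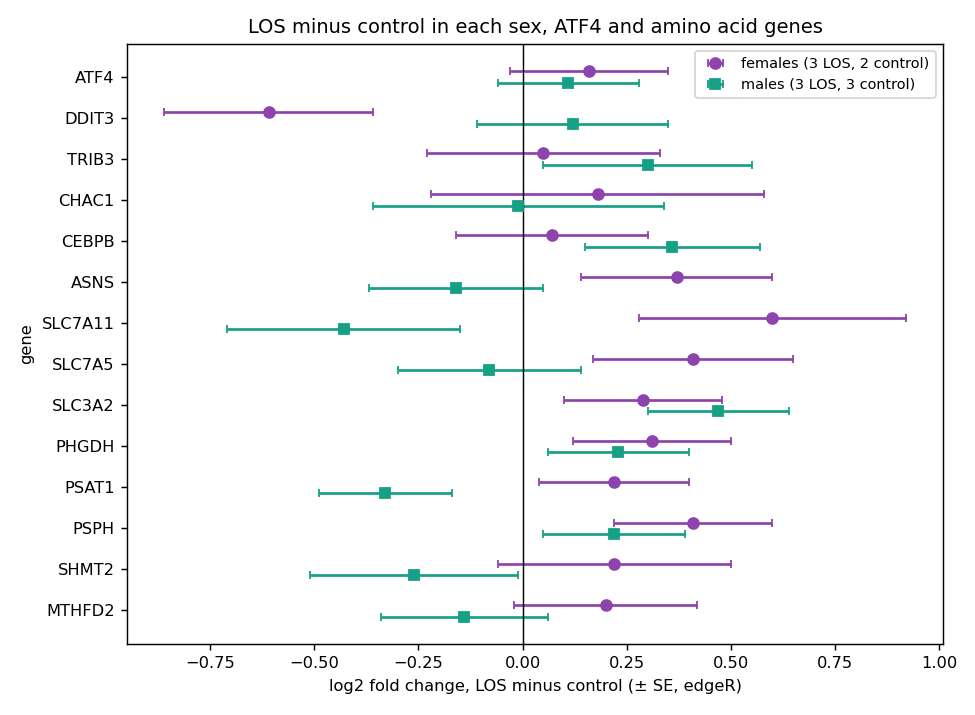
Log2 fold change, LOS minus control, with its standard error from edgeR, for the 14 ATF4 and amino acid genes, with purple circles for females and green squares for males. SLC7A11 lies on opposite sides of 0 in females and males, with an interaction of -1.02, while PHGDH, PSPH and SLC3A2 lie to the right of 0 in both.

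Reads over sites where the parents differ gave the maternal share of expression, and 20 of the 36 genes had enough of them for a test. By edgeR, a share that differed between LOS and control was called in 0 of the 20 genes, against 0% of 5700 genes. At an unadjusted p under 0.05 there was 1 of the 20, against 4.32% of all genes. This was XBP1, with an unadjusted p of 0.00809 and an adjusted p of 0.999. Its maternal share was 28.0% ± 9.60 (SD) over 5 LOS libraries, LOS 2 having no allelic reads, and 43.1% ± 14.4 over 5 controls. LOS 1, 3, 4, 5 and 6 had 26.5%, 16.3%, 40.0%, 22.0% and 35.1%, against 56.2%, 28.6%, 27.6%, 57.1% and 45.9% in controls 1 to 5, so the groups overlapped. These shares rest on 10 to 233 reads a library: in LOS 3 the 95% Clopper-Pearson interval was 7.32% to 29.7%. The next smallest p were at PDIA6 and PDIA4, with log2 odds ratios, LOS minus control, of 0.28 ± 0.16 and -0.28 ± 0.18 (SE).

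Over all libraries, the parental alleles of 6 of the 20 genes were unequal at an adjusted p under 0.05, against 20.5% of 5700 genes. PDIA4 was higher from the maternal allele (log2 maternal over paternal 0.53 ± 0.09 SE, edgeR adjusted p = 0.000144), with a share of 57.4% ± 4.67 in LOS and 61.6% ± 4.98 in controls (SD, n = 6 and 5). All 11 libraries were above 50%, from 51.6% to 67.2%. PDIA6 was higher from the paternal allele (-0.52 ± 0.08 SE, edgeR adjusted p = 7.52e-05), with a maternal share of 41.9% ± 6.69 in LOS and 39.2% ± 4.29 in controls. There 0 of 11 libraries were above 50%. HYOU1 leaned to the maternal allele (0.20 ± 0.05 SE, edgeR adjusted p = 0.00535) on 745 to 2178 reads a library. DNAJC3 (-0.29 ± 0.08 SE, adjusted p = 0.0140) and XBP1 (-0.74 ± 0.21 SE, adjusted p = 0.0158) leaned to the paternal allele by the same test. SLC3A2 leaned to the maternal one (0.40 ± 0.13 SE, edgeR adjusted p = 0.0343), with 59.3% ± 7.11 in LOS and 57.2% ± 7.31 in controls, LOS 6 having no allelic reads. That call was lost without control 1 (adjusted p = 0.0916), control 3 (0.0558), control 4 (0.0826) or LOS 3 (0.0612).

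The maternal share of SEL1L was 48.3% to 50.6% in LOS and 44.3% to 54.2% in controls, on 3189 to 7952 reads a library. PHGDH lay just outside the threshold on the paternal side (-0.18 ± 0.06 SE, edgeR adjusted p = 0.0507). ATF4 had 49.9% ± 2.95 in LOS and 51.9% ± 4.82 in controls, and ASNS 51.0% ± 3.70 and 48.7% ± 2.95 (SD, n = 6 and 5). The labels do not give which breed was the dam. If all crosses ran one way, breed and parent of origin cannot be told apart, and the part of mapping to a taurine assembly in these shares was not tested.

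**Figure D5:**
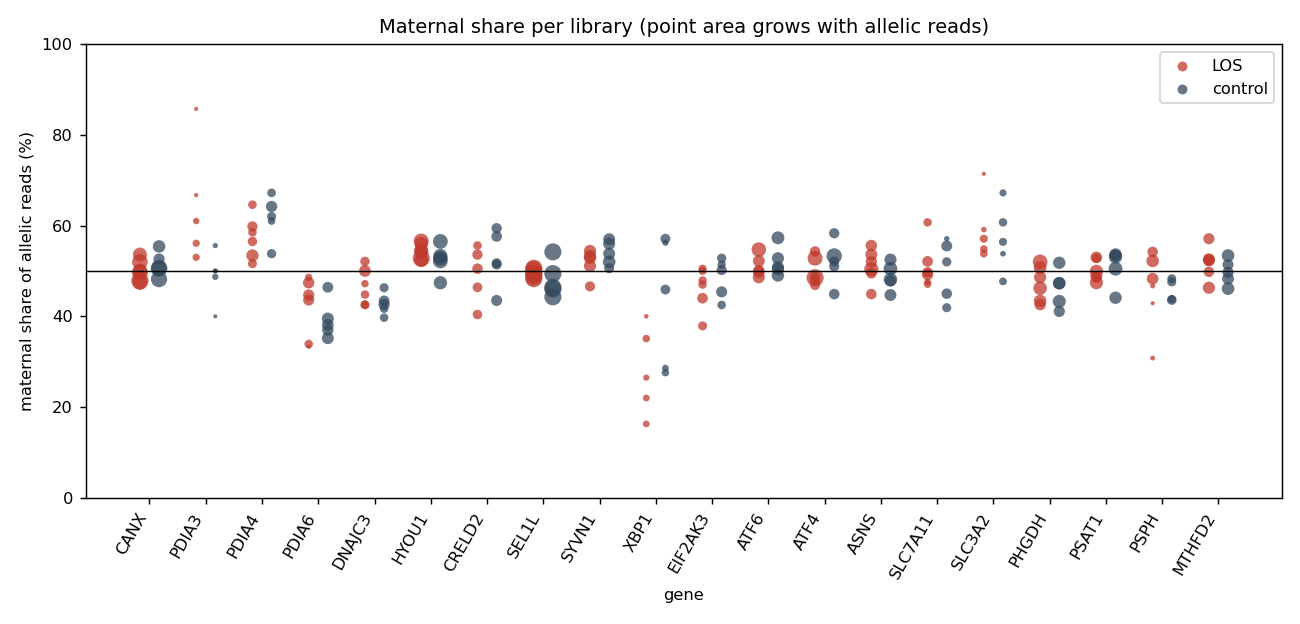
Maternal share of allelic reads in percent, per library, for the 20 genes tested, with LOS in red left of control in dark blue, larger points for more reads, and a line at 50%. All 11 points of PDIA4 lie above the line and all of PDIA6 below it, while XBP1, with few reads, spreads from 16.3% to 57.1%.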

How the data were processed

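Per the file headers and their values, the authors deposited expected (estimated) counts per gene, not normalised, of which 71.2% are whole numbers, and whole read counts per parental allele. Another deposited table is the product of expected count and allelic share, which was recomputed for 4334 genes, and 0 lay beyond 0.001. The submitters' processing notes name HISAT2 2.1.0, StringTie 2.1.4, Salmon 0.11.1 and build ARS-UCD1.2; the sources used here give neither the counting rule nor the use of strand.

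Expected counts were rounded and fitted in R 4.3.3 with edgeR 4.0.16 (TMM factors, filterByExpr, quasi-likelihood tests, sex and group as terms), with genes called at a Benjamini-Hochberg adjusted p under 0.05. CPM use TMM library sizes. P-values measure the spread between fetuses, with 1 culture each. The allelic model had a term per library, the allele and allele by group, for autosomal genes that averaged at least 20 allelic reads and had at least 10 in 3 libraries of LOS and of controls. Intervals of shares cover counting error only. Correlations use log2 CPM with a prior count of 0.5 and 100000 resamples. The scripts were tested on simulated data. Alternatives were DESeq2 1.42.0, limma 3.58.1 voom, other scaling and filters, a replicate block, and leaving out single libraries.

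Fuller values are given for the 2 genes of each role with the smallest p and for HSPA5, XBP1, ATF4 and DDIT3. These are every control library and the lowest, median and highest of LOS. Of each further list the 2 with the smallest p are named. HSP90B1 and other genes were chosen after their values were seen. The genes and lists were chosen with earlier results of these data known. No sequence is shown. Replicate numbers did not pair the samples: correlations of same-numbered libraries were -0.20 to 0.29. Within groups, libraries differed beyond counting error (chi-square per degree of freedom 18.9 to 86.0).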

Additional observations from a re-analysis of the deposited data

Results flagged for a closer look

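In 72 combinations of gene and group, 11 expression values had a gap to the nearest other library that was large for the range of their group. Of these, 8 were in LOS 6, which also had the highest total count: HSPA5 at 1150 CPM, HSP90B1 at 770 CPM, CALR at 1145 CPM, DNAJB9 at 21.8 CPM, SDF2L1 at 5.13 CPM, HYOU1 at 334 CPM, CRELD2 at 40.3 CPM and SEL1L at 492 CPM. The others were DNAJC3 in control 3 (138 CPM, high), SLC7A5 in control 2 (38.0 CPM, low) and SHMT2 in LOS 1 (106 CPM, high). By chance the rule flags about 1 in 20 groups where values are independent. The chaperones varied together across libraries, so the 8 flags in LOS 6 are not separate events. The share flagged over all genes was not computed, so the 11 values cannot be called more than usual. Among 39 combinations examined for the maternal share, 1 stood apart in the same way, SLC7A11 in LOS 4, at 60.7%.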

How the results depend on the processing

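The test called 0 of the 36 genes for LOS minus control under every alternative run. Log2 fold changes of all 36 kept their sign under DESeq2, other size factors, no low-count filter or 1 of at least 1 CPM in 5 libraries, and no sex term. Over all genes, DESeq2 called 4 for LOS minus control and 24 for male minus female, and the count for sex was 3 to 7 with single libraries left out (under 6 without control 1, 2, 3 or 5, or LOS 2, 4, 5 or 6). Genes with a different allelic share came to 0 or 1 (1 without control 2, LOS 1 or LOS 2). limma voom gave DNAJB11 0.02. Replicate numbers were not treated as pairs in the main fit. A replicate block in place of the sex term, 2 choices at once, left 21 of 36 genes higher in LOS. It gave HSP90B1 and CALR -0.02, PDIA3 -0.05, PDIA4 and EDEM1 0.00, and DNAJB9 -0.01. It also gave EIF2AK3, TRIB3 -0.02, CHAC1 -0.04 and SLC7A11 -0.03. Without control 2 and LOS 6, 21 genes turned: HSPA5 -0.22, HSP90B1 -0.25, CALR -0.12, PDIA3 -0.19, PDIA4 -0.15, PDIA6 -0.16, DNAJB9 -0.04, SDF2L1 -0.11, HYOU1 -0.14, MANF -0.20, HERPUD1 and ERN1 0.00, SYVN1 -0.08, EDEM1 -0.06, XBP1 -0.11, EIF2AK3 -0.05, CHAC1 -0.13, ASNS -0.09, SLC7A11 -0.32, SLC7A5 -0.15 and MTHFD2 -0.16, with a median over the 36 genes of -0.10. Single libraries left out moved HSP90B1 between -0.06 and 0.24, CALR between -0.01 and 0.18, CANX between -0.09 and 0.01, PDIA3 between -0.07 and 0.12, PDIA4 between -0.02 and 0.16, PDIA6 between -0.04 and 0.15, DNAJB11 between -0.10 and 0.09, SDF2L1 between -0.02 and 0.36, MANF between 0.00 and 0.37, SYVN1 between -0.04 and 0.08, EDEM1 between -0.04 and 0.16, XBP1 between -0.08 and 0.08, EIF2AK3 between -0.01 and 0.09, CHAC1 between -0.07 and 0.30, ASNS between -0.07 and 0.18, SLC7A11 between -0.18 and 0.15, SLC7A5 between -0.03 and 0.23, PSAT1 between -0.19 and 0.00, SHMT2 between -0.22 and 0.08 and MTHFD2 between -0.11 and 0.11. The correlation of PHGDH and PSAT1 ran from -0.11 to 0.21. The cause of these changes was not tested. Control 2 and LOS 6 were picked after their values in these genes were seen, so the fit without both is not an independent check. With 5 and 6 fetuses a small difference can be missed, and allelic depth limits genes with few such reads, such as PDIA3, SLC3A2 and XBP1.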

Other observations

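For 13 of the 36 genes the deposited table gives the expression of each parental allele. SEL1L had 192 ± 28.6 CPM from the maternal allele in LOS, against 154 ± 33.3 CPM in controls, and 196 ± 25.1 CPM from the paternal allele in LOS, against 165 ± 23.2 CPM in controls (SD, n = 6 and 5). PHGDH, too, was higher in LOS from both alleles, with 119 ± 23.3 against 98.4 ± 24.5 CPM maternal and 131 ± 14.2 against 113 ± 9.80 CPM paternal. For ATF4 the maternal allele gave 292 ± 46.0 CPM in LOS, against 283 ± 63.4 CPM in controls, and the paternal allele 293 ± 45.6 CPM in LOS, against 257 ± 18.8 CPM in controls. Each value is the product of the gene's expected count and its allelic share. The shares of SEL1L and PHGDH differed little (log2 odds ratio, LOS minus control, 0.08 ± 0.09 and 0.07 ± 0.13 SE). Higher values from both alleles therefore follow from their higher totals and are not a further result. These values were not tested.

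HSPA5 had allelic reads in only 4 libraries, with maternal shares of 48.6% in LOS 4 and 43.6% in LOS 5, and 50.5% in control 1 and 47.8% in control 4. LOS 6, its highest library, had none, so the allelic origin of that level is not given by these files.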
